A study of Mus musculus with 2 samples.

Results

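Binding in sorted muscle stem cells was examined at 9 genes that hold the cell cycle back or drive a resting cell into it. The inhibitor class comprised Cdkn1a, Cdkn1b, Cdkn1c, Cdkn2a, Rb1 and Trp53, and the cyclin class comprised Ccnd1, Ccnd2 and Ccne1. A peak was counted for a gene when its summit, the position of highest ChIP coverage, lay inside the gene span or within 50 kb of it on GRCm38. By this rule 4 of the 2977 deposited peaks belonged to 3 of the 9 genes, Cdkn1b, Trp53 and Ccne1, where 21.5% of all protein-coding genes had a peak by the same rule.

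The peaks came from chromatin immunoprecipitation with sequencing (ChIP-seq) of untreated C57BL/6 mouse muscle stem cells sorted by flow cytometry. The mice carried the Pax7-YFP KI allele, a knock-in of yellow fluorescent protein at Pax7, and the same genotype supplied both libraries. Fragments were recovered with an antibody against GFP in 1 library (10622111 tags), and the control was input DNA without antibody in 1 library (20429667 tags). No value had a replicate, so no difference between libraries or genes was tested, and each interval reflects only the counting of fragments. The labels do not give the age or number of the mice, whether animals were pooled, or whether YFP is fused to the PAX7 protein, and GFP ChIP from cells without the allele was not analysed here. Among marker genes, which show here only a peak and not expression, 5 of 9 muscle stem cell markers had a peak within 50 kb. So did 3 of 5 endothelial, 1 of 4 fibro-adipogenic and 1 of 4 leukocyte markers. The count was 1 of 4 for smooth muscle and pericyte and 2 of 4 for muscle fibre markers, beside 21.5% of all protein-coding genes. Pax7 and the pericyte marker Rgs5 both had 14.7-fold (9.92 to 21.0). The 2 muscle fibre markers, Myh1 and Myh4, shared 1 peak, which was nearest to Myh1. The strongest peaks of Chrdl2 (muscle stem cell), Pecam1 (endothelial) and Cd68 (leukocyte) were nearest to other genes (Pold3, Tex2 and Mpdu1). For the remaining markers with a peak, the strongest was nearest to the marker itself. The part of these other cell types in the results below was not tested.

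Muscle stem cells rest outside the cell cycle until injury or growth calls on them. Cyclin D proteins with their kinases, and then cyclin E with its kinase, phosphorylate the retinoblastoma protein RB1 and release E2F factors that switch on DNA synthesis genes. Proteins of the Cip/Kip family (p21 from Cdkn1a, p27 from Cdkn1b, p57 from Cdkn1c) inhibit these kinases, p16 from Cdkn2a keeps cyclin D from its kinases, ARF from the same gene stabilises p53, and p53 from Trp53 induces p21 after damage. PAX7 binds DNA through a paired domain and a homeodomain, and marks these stem cells.

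Among the 7 RefSeq promoter windows of members (5 of the 9 genes, GRCm38.p6), only that of Cdkn1b held a summit, and the upstream Trp53 summit fell in a window of the neighbouring Wrap53. These windows are shown because they hold the summits of the 2 promoter-near peaks counted for the gene set, the second of them nearest to Wrap53. Each line gives the 250 bases before a start site, 5′ to 3′ in the direction of the gene, with the bases under the peak in capitals. The first is chr6:134920151-134920400 on the plus strand and the second chr11:69579250-69579499 on the minus strand.

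Cdkn1b: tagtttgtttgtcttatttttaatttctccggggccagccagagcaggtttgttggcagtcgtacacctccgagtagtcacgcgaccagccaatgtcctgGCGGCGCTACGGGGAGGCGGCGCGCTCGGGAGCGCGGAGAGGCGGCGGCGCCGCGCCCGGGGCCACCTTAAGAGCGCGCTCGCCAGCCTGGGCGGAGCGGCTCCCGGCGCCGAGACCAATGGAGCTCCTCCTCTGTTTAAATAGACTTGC

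Wrap53: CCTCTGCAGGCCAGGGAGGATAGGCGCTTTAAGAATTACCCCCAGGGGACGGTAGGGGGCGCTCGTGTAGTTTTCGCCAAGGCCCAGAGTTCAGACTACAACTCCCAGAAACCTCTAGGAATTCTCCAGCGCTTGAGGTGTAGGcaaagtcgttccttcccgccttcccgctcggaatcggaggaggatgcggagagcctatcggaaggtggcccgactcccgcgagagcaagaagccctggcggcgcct

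The 150 capital bases upstream of Cdkn1b had a GC content of 74.0%, and the 144 capital bases upstream of Wrap53 had 56.9%. Promoter windows of 300 bases (250 before and 50 after the start) were searched on both strands for fixed letter strings. The paired domain core GTCACGC, which contains the short form GTCAC, occurred once in the Cdkn1b window, from 174 to 168 bases before the start. It lay 58 bp from the summit and outside the capitals, and 2.66% of 21263 promoter windows of protein-coding genes held this string. The homeodomain core TAAT stood in the same window from 230 to 227 bases before the start, also outside the capitals. In the Wrap53 window the reverse reading ATTA stood from 216 to 213 bases before the start and covered the summit base, but 51.8% of all windows held this string. No dimer of the homeodomain core (TAAT and ATTA spaced by 2 or 3 bases) was in either window. The GC box GGGCGG was under the Cdkn1b peak, from 61 to 56 bases before the start, and 46.2% of all windows held it. A CCAAT box stood there from 35 to 31 and outside the capitals from 161 to 157 bases before the start, and its reverse reading filled the last 5 bases of the window, 46 to 50 after the start (38.2% of all windows held a CCAAT box). Neither window held an E-box (CANNTG, which includes CAGCTG), an AP-1 string (TGANTCA) or a cAMP response element.

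Cdkn1b, which encodes the kinase inhibitor p27, lies on chromosome 6 from 134920401 to 134925525 on the plus strand. Its only peak ran from 134920251 to 134920425 (175 bp), with the summit 110 bp upstream of the start site. The summit was covered by 11 ChIP fragments, against a background of 0.977 fragments at the ChIP depth. This background is the genome-wide floor of the caller and not input counted at the site. At the floor, where 1313 of the 2977 peaks and 2 of the 4 member peaks stood, the fold depends on the pileup alone. The deposited fold enrichment was 6.07 (95% exact Poisson interval of the pileup 3.28 to 10.5) and the deposited −log10 q was 5.28. This was a weak peak of the list: 18.0% of all peaks had a lower fold and 5.51% a lower pileup. No other summit lay within 50 kb of the gene, and the next was 145219 bp from this summit.

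Trp53, which encodes p53, lies on chromosome 11 from 69580348 to 69591873 on the plus strand and had 2 peaks, 1 on either side of its start site. The upstream peak ran from 69579356 to 69579567 with its summit 897 bp before the start, covered by 18 fragments over a background of 1.25. Its fold was 8.44 (5.18 to 13.1) and its −log10 q 11.2, and 69.8% of all peaks had a lower fold. The downstream peak ran from 69581331 to 69581601 inside the gene, 1118 bp after the start, with 13 fragments over the background floor of 0.977. Its fold was 7.08 (4.01 to 11.8) and its −log10 q 7.33, and 42.3% of all peaks had a lower fold. Their intervals, which hold the background fixed, overlap, and the difference between the 2 folds was not tested. Whether the inner peak lies in an exon or an intron was not analysed here.

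The upstream Trp53 summit lay inside Wrap53, which runs on the minus strand from 69561754 to 69580250 and encodes a protein of Cajal bodies and telomerase. A Wrap53 start site was 213 bp from this summit, nearer than the Trp53 start, so the peak cannot be given to either gene from position alone. Between the peaks, the 300-base promoter windows of Trp53 and of the outer Wrap53 start overlapped no peak. The summits were 2015 bp apart, and a common enriched region was not tested. Of 17492 protein-coding genes with a start site in the table, 14 (0.0800%) had summits on both sides of a start within 1200 bp, and within 2000 bp there were 24 (0.137%), with Wrap53 among them. Both limits were chosen after the Trp53 distances were seen. The 50 kb rule also gave 2 or more peaks to 4.89% of all protein-coding genes.

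**Figure D1:**
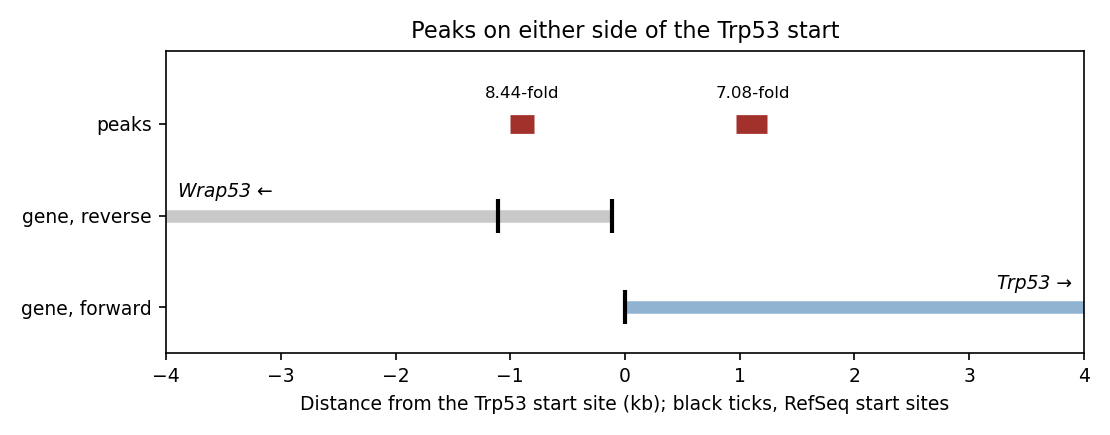
Position of the 2 Trp53 peaks (red blocks, with deposited fold) relative to the Trp53 start site in kb, above the spans of Wrap53 (grey, minus strand) and Trp53 (blue, plus strand) within 4 kb on either side. The upstream peak sits beside the inner Wrap53 start site and the downstream peak inside Trp53, and neither covers the Trp53 start.

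Ccne1, which encodes cyclin E1, lies on chromosome 7 from 38097984 to 38107490 on the minus strand and was the only cyclin gene with a peak. The peak ran from 38112297 to 38112602 (306 bp), outside any protein-coding gene, with the summit 4978 bp upstream of the start site. It held 14 fragments over a background of 1.56, which gave a fold of 5.86 (3.38 to 9.57) and a −log10 q of 5.92. Only 13.7% of all peaks had a lower fold, although 37.7% had a lower pileup. The background here was the highest of the 4 peaks. Ccne1 was the only protein-coding gene within 50 kb of this summit, while the Cdkn1b summit had 3 such genes and each Trp53 summit 7. The neighbours of the Cdkn1b summit were Gpr19 (22097 bp) and Crebl2 (39711 bp).

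**Figure D2:**
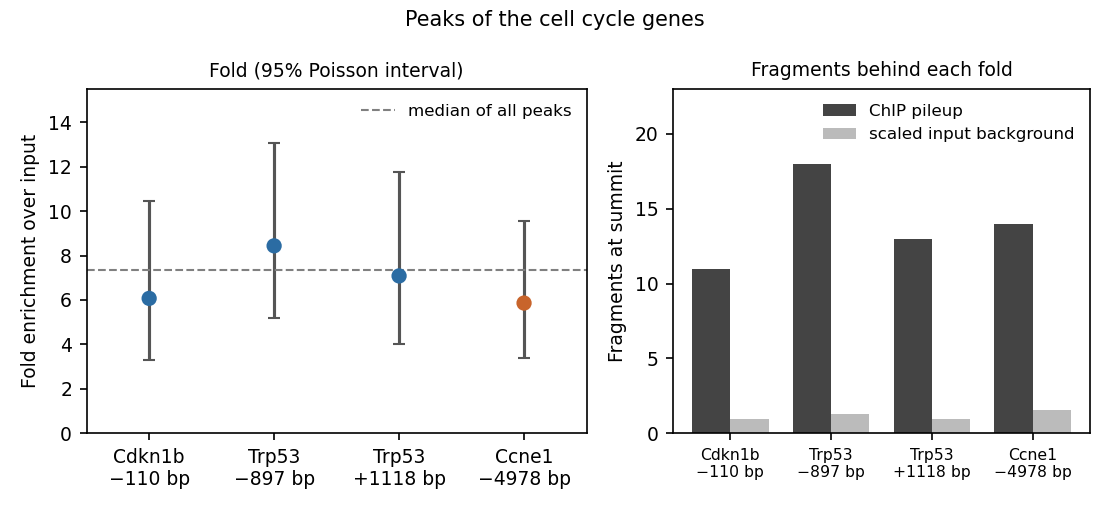
Left, deposited fold enrichment over input of the 4 peaks, labelled by gene and by summit distance from the start site (minus, upstream). Error bars are 95% exact Poisson intervals of the pileup. Right, ChIP fragments and scaled background at each summit, which is the floor of 0.977 for Cdkn1b and the downstream Trp53 peak. Blue marks inhibitors and orange the cyclin; all 4 intervals overlap and include the median of all peaks, 7.35-fold.

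The other 6 genes had no called peak within 50 kb, and their nearest summits were at increasing distances from the gene span. Rb1, on chromosome 14 from 73192858 to 73325951, was just outside the rule, with a summit of 6.01-fold (3.33 to 10.2) at 59.5 kb. That summit was 166 bp from Itm2b. The nearest summit to Cdkn2a, on chromosome 4 from 89274473 to 89294619, was 7.42-fold (4.56 to 11.5) at 144.8 kb and 7695 bp from Mtap. For Cdkn1a, on chromosome 17 from 29090979 to 29100722, the nearest was 5.39-fold (2.84 to 9.51) at 334 kb. For Cdkn1c, on chromosome 7 from 143458339 to 143461059, it was 13.2-fold (8.69 to 19.2) at 389 kb, inside Tssc4. Itm2b, Mtap and Tssc4 were named after their values were seen.

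The D cyclin genes were the farthest from any summit. The nearest summit to Ccnd2, on chromosome 6 from 127125162 to 127152188, was 643.8 kb away (7.08-fold, 4.01 to 11.8). For Ccnd1, on chromosome 7 from 144929931 to 144939831, it was the Tssc4 peak at 1860.6 kb. A nearest summit at least this far was found for 7.38% of protein-coding genes on chromosomes with peaks, against 23.9% for Ccnd2 and 39.7% for Cdkn1a. The median distance was 144.8 kb over the 9 members and 223 kb over all these genes. Missing peaks have a depth limit: the smallest pileup called anywhere was 9 fragments, so weaker binding was not detectable at this depth.

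**Figure D3:**
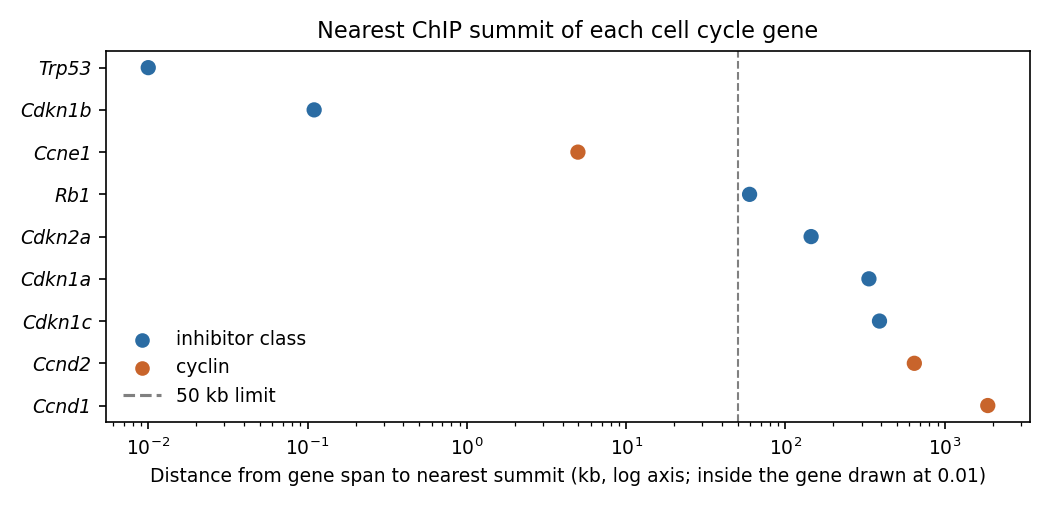
Distance from each gene span to its nearest summit in kb on a log axis (inside the gene drawn at 0.01 kb), with inhibitors in blue, cyclins in orange and the 50 kb limit dashed. Trp53, Cdkn1b and Ccne1 fall inside the limit, Rb1 just outside it at 59.5 kb, and Ccnd1 farthest at 1860.6 kb.

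As a set, 3 of 9 members (33.3%) had a peak, beside the 21.5% of all 21774 protein-coding genes, a share that was not matched on gene length or surroundings. With so few genes the share is a description, and 1 gene fewer would bring it near the background. The inhibitor class had a peak at 2 of 6 genes and the cyclins at 1 of 3, which is the same share. The 3 inhibitor peaks had folds from 6.07 to 8.44 with a median of 7.08, and the cyclin peak at 5.86 was below all of them. The cyclin interval reached 9.57, above each inhibitor fold, and that order was not tested. By fragments the cyclin peak (14) was above the Cdkn1b peak (11) and the inner Trp53 peak (13). Its background was 1.56, where those 2 peaks were at the floor of 0.977. Of the 3 inhibitor peaks, 2 were counted for Trp53, and the 8.44-fold one had its summit inside Wrap53.

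Promoter-near peaks, with the summit within 1000 bp of a start site, were 2 of the 4 (Cdkn1b at 110 bp and Trp53 at 897 bp). Just beyond the limit was the inner Trp53 peak at 1118 bp, and the Ccne1 peak was farthest. Among the 2520 peaks within 50 kb of any protein-coding gene, 36.5% were promoter-near. By gene, 2 of 9 members had a promoter-near peak, beside 4.65% of all protein-coding genes. The median fold was 7.25 for the promoter-near member peaks and 6.47 for the farther ones, and their values (6.07 and 8.44, against 5.86 and 7.08) overlapped. When only peaks nearest to the member were counted, which leaves the upstream Trp53 peak to Wrap53, the difference between these medians turned from 0.78 to −0.40. Over all peaks within 50 kb of a gene the medians were 7.08 for promoter-near and 7.35 for farther peaks. The 4 member peaks had a median of 6.58-fold and 13.5 fragments, against 7.35-fold and 15 fragments for all peaks.

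The wider cell cycle machinery was read through 8 lists with 109 genes, of which 32 (29.4%) had a peak within 50 kb, beside the 21.5% of all protein-coding genes. The same 21.5% stands beside the count of each list below, and no list was tested against it. A summit lay within 1000 bp of a start in 10 of the 32 (31.3%), beside 21.6% of the 4680 protein-coding genes with a peak. For 16 of the 32 the strongest peak was nearest to another protein-coding gene, a share not computed over all genes. When only peaks nearest to a gene were counted, 19 of the 32 kept a peak, beside 2022 of the 4680. Highest folds ran from 4.30 for Mycn to 14.7 for Fzr1, with a median of 7.59.

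Of 4 other CDK inhibitor genes, only Cdkn2d, which encodes the cyclin D kinase inhibitor p19, had a peak (25%, near the 21.5% background share). It had 4 peaks. They were 7.59-, 9.10-, 14.2- and 8.60-fold, the last with its summit 203 bp from the start site. The strongest, 14.2-fold (9.51 to 20.4), lay 422 bp from the Cdkn2d span but nearer to Kri1. The 9.10-fold peak, at 46911 bp, was nearest to S1pr5, and the 7.59-fold peak, at 49772 bp and close to the 50 kb limit, was nearest to Keap1. Cdkn2d was thus the nearest gene of 1 of the 4 peaks. Each of the 4 exceeded the Cdkn1b fold of 6.07, but only the strongest had more than 18 fragments.

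In the p53 pathway 7 of 18 genes (38.9%) had a peak, beside 21.5% of all protein-coding genes. Trp63, a gene of the p53 family, had 11.6-fold (7.48 to 17.4) at 1135 bp from a start, and the damage kinase gene Atm 9.10-fold at 372 bp, nearest to Npat. The growth arrest genes Gadd45g, Gadd45b and Gadd45a had 8.57-, 7.59- and 7.35-fold, each within 1000 bp of the gene span. Pmaip1, a pro-apoptotic gene, had 7.35-fold at 12642 bp, and the checkpoint kinase gene Chek2 made up the rest. Mdm2, the gene of the main p53 ubiquitin ligase, had none.

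Among pocket proteins, E2F factors and the DREAM complex, which represses cell cycle genes in resting cells, 6 of 18 genes (33.3%) had a peak. None of the 6 had a summit within 1000 bp of a start, beside 21.6% of all protein-coding genes with a peak. E2f6 had 3 peaks (up to 8.68-fold), E2f7 7.84-fold, E2f2 7.59-fold, E2f5 7.24-fold and Lin54 6.37-fold, with E2f4 the remaining gene. The strongest peaks of E2f2, E2f5, Lin54 and E2f4 were nearest to other genes (Id3, Rbis, Cops4 and 4931428F04Rik). The RB1 relatives Rbl1 and Rbl2 had none. Other cyclins and kinases held peaks at 2 of 17 genes, below the background share. They were the mitotic brake Wee1 at 10.6-fold and the cyclin D partner Cdk4 at 7.59-fold, with the Cdk4 peak nearest to Tspan31. Inhibitor turnover had peaks at 2 of 9 genes (22.2%), near the background share. They were Fzr1 at 14.7-fold and Rnf123 at 9.61-fold, both of these peaks nearest to other genes (Hmg20b and Gmppb). Fzr1, a gene for an activator of the anaphase-promoting complex, also had a peak of its own, 7.59-fold at 72 bp from its start.

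Replication licensing and proliferation genes had peaks at 5 of 13 (Mcm2 9.10-fold, Pcna and Top2a 8.33-fold, Gmnn 7.08-fold and Mcm6 6.81-fold). All 5 lay more than 10 kb from the gene and were nearest to another gene. Of the 4680 protein-coding genes with a summit within 50 kb, 2374 had one within 10 kb, and 2022 were nearest to a peak. Whether this list differs from that was not tested. Growth signals at exit from quiescence had 5 of 17, with Rps6kb1 at 8.09-fold, Mxd4 at 6.58-fold, Akt2 at 6.07-fold, Rptor at 5.52-fold and Mycn at 4.30-fold. The Rps6kb1 peak, at 14471 bp, was nearest to Rnft1, and the Akt2 peak, at 48669 bp, was nearest to Zfp607b. FoxO and quiescence regulators had 4 of 13: Rgs2 at 8.60-fold, the antiproliferative genes Tob1 at 7.59-fold and Btg1 at 7.08-fold, and the growth arrest gene Gas1 at 7.35-fold. No FoxO gene had a peak within 50 kb.

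**Figure D4:**
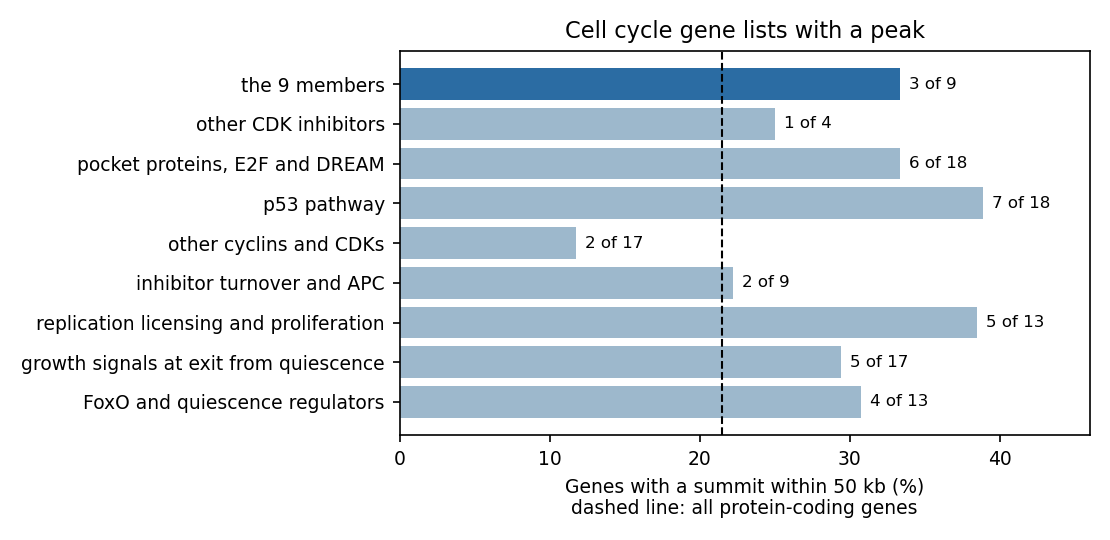
Percent of genes with a summit inside or within 50 kb of the span for the 9 members (dark bar) and 8 wider lists (light bars), with counts at the bar ends and the share of all protein-coding genes, 21.5%, as a dashed line. The p53 pathway had the highest share (7 of 18) and other cyclins and CDKs the lowest (2 of 17).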

How the data were processed

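Samples were grouped by title into GFP ChIP and input DNA, 1 library each. GRCm38, HISAT2 and MACS2 are named per the submitters' processing notes. Per the file headers, the authors ran MACS 2.1.1.20160309 in narrow mode with a q-value cutoff of 0.01 and a fragment length of 172 bp, and scaled the input to the ChIP depth. The pileup, as deposited, is an unscaled coverage signal, the deposited fold enrichment a ratio of (pileup + 1) over (local background + 1), and the caller's Poisson test gave the deposited −log10 p-value and, after adjustment, the deposited −log10 q-value.

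From these values the local background was recovered (floor 0.977 fragments), and exact Poisson 95% intervals of the pileup were computed with the background held fixed (scipy 1.17.1). Genes came from the RefSeq GRCm38.p6 table. Rows with scaffold or patch coordinates (348) were dropped, which kept 21774 protein-coding genes. Start sites and sequences came from RefSeq promoter windows (GRCm38.p6). For the 4282 protein-coding genes without a window either gene end stood in for the start. The named genes were the 9 members, the nearest genes of their peaks and up to 5 genes per wider list with the highest folds. Rgs5, Myh1, Myh4, Chrdl2, Pecam1, Cd68 and the nearest genes of marker and wider-list peaks were named after their values were seen. Gene assignment and intervals were tested on simulated data. The members, lists and tests were chosen with earlier results of these data known, and no set test was run. Alternatives changed the peak threshold, distance, overlap rule, assignment and promoter limit.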

Additional observations from a re-analysis of the deposited data

How the results depend on the processing

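Of the 3 genes with a peak, Trp53 kept it under all 7 alternatives that change the peaks or the distance, and Cdkn1b and Ccne1 under 6. The exception was the stricter threshold (only peaks whose −log10 q reached the median). It left 1 peak, 1 member, 1 inhibitor, 0 cyclins, 1 promoter-near peak and 18 genes of the wider lists, where 12.1% of all protein-coding genes had a peak. Counting only peaks nearest to a gene left 1 promoter-near peak, because the upstream Trp53 summit lies in Wrap53, and 19 genes of the wider lists, beside 9.29% of all protein-coding genes. It also turned the promoter-near minus farther difference of median folds from 0.78 to −0.40 and lowered the inhibitor minus cyclin difference from 1.22 to 0.72. Within 10 kb the members' count stayed at 3, beside 10.9% of all protein-coding genes, and the wider lists fell to 21 genes. Within 100 kb Rb1 was added, which gave 4 members beside 31.6%. With 2500 bp as the promoter limit the promoter-near difference was 1.22. The shifts in these differences of median folds were smaller than the counting intervals, and under the stricter threshold the differences could not be computed. The counts of peaks and genes have no such interval. No paired analysis was possible because each group had 1 library, and no library could be left out. The typical peak rests on 15 fragments, so folds have wide intervals.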

Other observations

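The paired domain core GTCACGC, which the Cdkn1b promoter holds, was more frequent in promoter windows with a summit than in promoter windows at large. Among 570 windows with a summit, 88 (15.4%) held it, beside 2.66% of all 21263 windows. Windows with a summit also had more CpG dinucleotides, with a median of 24 against 13. Above the median CpG count the shares were 15.7% of 515 windows with a summit and 3.94% of 9883 without, and for the GC box GGGCGG they were 77.3% and 76.6%. At or below it they were 12.7% of 55 windows with a summit and 0.814% of 10810 without, but the GC box also differed there (22 of the 55 windows, and 16.9%), as did the median CpG count (11 and 4), so this class was not matched. The homeodomain core TAAT was more frequent with a summit in both classes, at 51.1% against 31.0% above the median and 90.9% against 70.6% at or below it. Without the split by CpG count it was in 54.9% of windows with a summit and 51.8% of all windows. Other strings went either way without the split, such as CCAAT (49.3% against 38.2%) and the E-box CANNTG (59.5% against 69.0%). GTCACGC was a median of 34 bp from the summit (quartiles 13.0 and 65.8), beside 45 bp for GGGCGG and 47 bp for TAAT. Windows chosen for a summit bring any string near it, and the 58 bp at Cdkn1b is farther than each of these medians. GTCACGC also stood in a promoter window of Cdkn1a and in the outer window of Wrap53, where no peak was called. Among 114 promoter windows of the wider cell cycle lists, 7 held GTCACGC and 4 held a summit, with 1 window (Tob1) holding both. These shares are descriptions and were computed on the same peak list without a test.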
